A study of Mus musculus with 12 samples.

Results

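Chromatin accessibility was compared between cells in the course of reprogramming and the cells at its 2 end points, in 1 contrast over all 12 libraries of the study: the mean of the Stage 1 and Stage 2 groups minus the mean of the mouse embryonic fibroblast (MEF) and induced pluripotent stem cell (iPSC) groups, on the log2 scale. All 12 of 12 libraries entered it, 6 from the intermediates and 6 from the end points. The assay was ATAC-seq, which reads out open chromatin as the places where a transposase can cut and tag the DNA. Every group had 3 libraries and came from a mixed C57BL/6 and 129 strain. MEF, the starting cells, were not sorted. Stage 1 was taken at day 6 and Stage 2 after 4 further days of a protocol called 3c enhanced reprogramming, and both were sorted for Oct4-GFP, a fluorescent reporter of Pou5f1. The iPSC, called established in the study's design text, carried the same sort. The labels name no reprogramming factors, no age of the embryos and no source for each replicate, so the p-values below measure the spread between these libraries, which may be technical. The sort separates all later groups from MEF, so cell selection and stage cannot be told apart in any difference from MEF.

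During reprogramming, enhancers that hold the fibroblast program close, and enhancers bound by Oct4, Sox2 and Klf4 open, before the endogenous pluripotency network becomes stable. Cells on the way are known to pass through a change from mesenchymal to epithelial character, and some sites open in them that are open in neither the starting nor the final cell. A site of that kind is higher in the intermediates than in each end point taken alone, which is a stricter demand than the contrast of means.

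The libraries held 14310290 to 32229388 reads, of which 1034936 to 6261903 fell in the 115000 regions that the authors counted. Regions took up 6.83% ± 1.06 of all reads in the intermediates and 10.8% ± 7.28 in the end points (SD, n = 6 each), and the 2 sets overlapped (two-sided exact permutation test, p = 0.245 over 924 arrangements). Background, estimated from the read density outside the regions, was expected to make up 13.8% ± 5.54 of region reads at MEF, 30.6% ± 1.75 at Stage 1, 39.9% ± 5.56 at Stage 2 and 48.9% ± 4.28 at iPSC (SD, n = 3 each). It thus rose from MEF to iPSC across the contrast. Its level is given beside the region and gene sets and beside some single genes and regions. A gene or region printed without it was not thereby free of background. Levels below are CPM, that is, reads scaled to a common library size over the regions by TMM. A gene's value is the sum over the regions in its span or within 10 kb of either end, so it describes open chromatin around the gene, not its transcription; regions within reach of several genes count for each. Summed over 8 fibroblast genes, accessibility was 890 to 972 CPM at MEF and 330 to 462 CPM in every later library. Over 8 pluripotency genes it was 194 to 217 CPM at MEF and 804 to 1058 CPM in the later libraries. In bulk samples, fewer open cells and less accessibility per cell cannot be told apart.

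Most of what differed in the contrast differed mainly from MEF. Of 71069 regions tested with edgeR's quasi-likelihood test, 25438 (35.8%) were called higher in the intermediates and 24344 (34.3%) lower. In the regions called higher, the median difference was 2.92 log2 units from MEF and 0.13 from iPSC, and 90.9% of them were also called higher in iPSC than in MEF, against 40.8% of all tested regions. The intermediate mean lay between the end points in 39.7% of the regions called higher and in 14.998% of those called lower. A second test therefore asked for a difference from each end point separately: its p is the larger of the p against MEF and the p against iPSC, adjusted over all regions. It called 927 regions above both end points (1.3%) and 502 below both (0.706%). These were 3.64% of the regions that the contrast called higher and 2.06% of those it called lower. Both counts rest on single libraries: that above both was 355 without iPSC replicate 3 and 1521 without MEF replicate 1, and that below both was 92 without iPSC replicate 3. Leaving out either of the other iPSC libraries, or for the regions below both also Stage 1 replicate 2 or 3 or Stage 2 replicate 1 or 2, moved a count by over 1.5 times too.

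**Figure D1:**
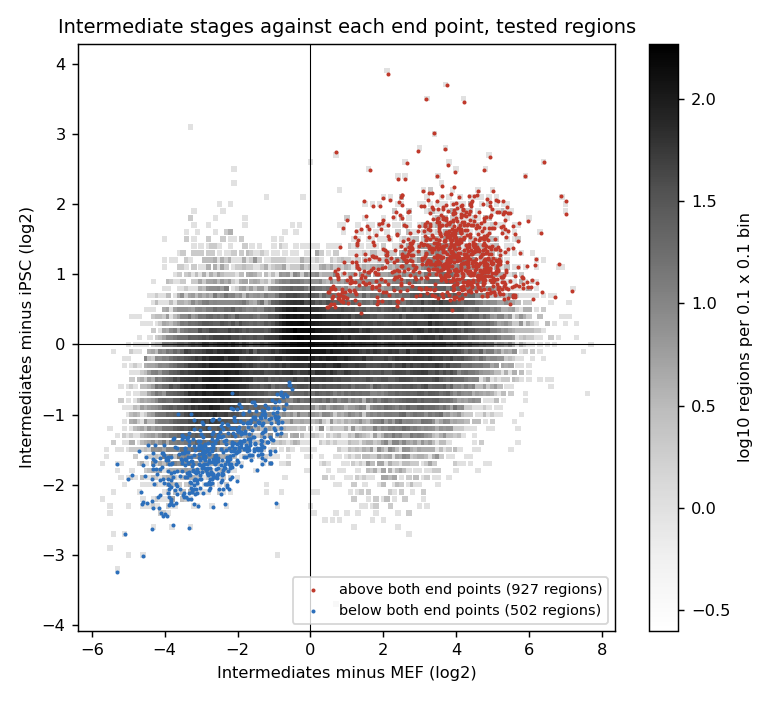
Each region is placed by the log2 difference between the intermediates and MEF (horizontal axis) and between the intermediates and iPSC (vertical axis), with grey squares for all 71069 tested regions by density. The 927 regions above both end points (red) lie at the upper right and the 502 below both (blue) at the lower left, while the bulk of the regions spreads along the horizontal axis.

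The 927 regions above both end points were nearly closed at MEF, most open at Stage 1, less so at Stage 2, and lower again in iPSC. Their median level was 1.29 CPM at MEF, 23.5 at Stage 1, 16.2 at Stage 2 and 8.04 at iPSC. The matching median of expected background was 1.73, 2.94, 3.93 and 4.82 CPM. The intermediate mean exceeded 2 times background in all 927 regions, against 66.6% of all tested regions. The iPSC mean did so in 366 of the 927 (39.5%, against 55.1%) and the MEF mean in 163 of the 927 (17.6%, against 72.0%). In 688 of them (74.2%) the 6 intermediate libraries did not overlap the 6 end point libraries, against 2.51% of all tested regions. By library, these regions took 0.227% to 0.291% of region reads at MEF, 2.76% to 2.81% at Stage 1, 1.85% to 2.17% at Stage 2 and 1.04% to 1.117% at iPSC. Of the 927, 782 (84.4%) were also called higher in iPSC than in MEF, which is not independent of the choice. The members were chosen on these same reads, so the shares describe them and test nothing. The lowest smaller difference among members was 0.45 log2 units and the largest 3.70, with a median of 1.20.

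Stage 2 was lower than Stage 1 in many of these regions. The weights of this contrast were orthogonal to those of both differences that chose them. It uses the same Stage 1 and Stage 2 reads, however. Stage 1 held fewer reads in regions than Stage 2 (means of 1264786 and 1568278), so its estimates need not be independent of the choice. Stage 2 was called lower in 324 of the 927 (34.95%), against 4.3% of all tested regions, and higher in 15 (1.62%), against 6.14%. The median Stage 2 minus Stage 1 difference was -0.46 log2 units in these regions and 0.09 over all tested regions. Among the 502 regions below both end points the shift was the other way, with a median of 0.66, and 38 were called higher in Stage 2 (7.57%), close to the 6.14% of all regions. Without Stage 1 replicate 3 that share was 1.80%, against 2.59% of all regions. With a stricter count filter, which tested 133 of the 502, it was 15.8%, against 7.50%. With expected background subtracted it was 8.28%, against 5.59%, and the median was 0, as over all regions. Counts under background became 0 in that setting, so the median of these regions cannot decide on the shift. Background at these regions rose from 2.94 CPM at Stage 1 to 3.93 at Stage 2, and its part in the shift was not tested. Among the members as chosen, a greater distance from the end points at Stage 1 than at Stage 2 was measured for the regions above both. For those below it was not shown, as the called share lay under or over that of all regions by setting. How much of it came from the choice was not tested. Fitted with Stage 1 alone in place of the mean of both stages, the both-end-points test called 2305 regions above and 1142 below. With Stage 2 alone it called 363 above and 51 below.

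**Figure D2:**
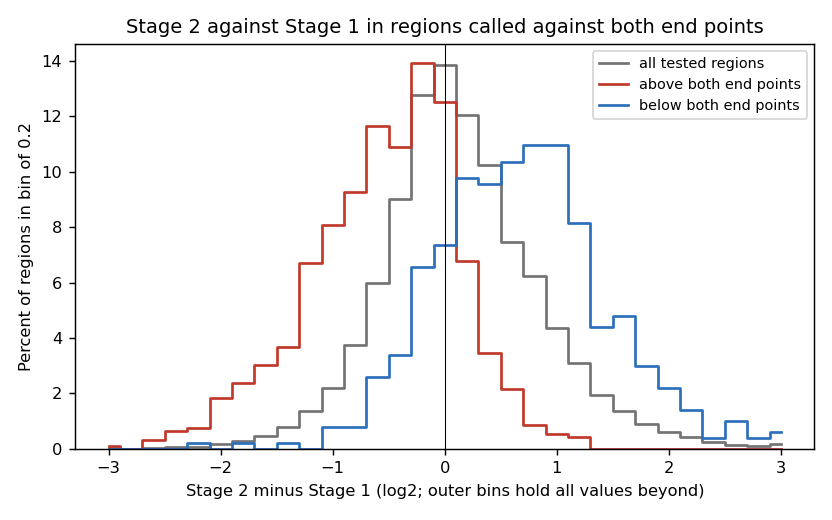
The horizontal axis gives the Stage 2 minus Stage 1 difference (log2) and the vertical axis the percent of regions in each bin of 0.2. The curve of the regions above both end points is shifted to the left of all tested regions (median -0.46 against 0.09), and that of the regions below both to the right (median 0.66).

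The deposited interval lists, 1 per stage, gave a second view of the same libraries. Lists and members rest on the same reads, so the shares describe the members and test nothing. Of the regions above both end points, 98.5% were in the Stage 1 list (all tested regions, 48.0%) and 75.8% in the Stage 2 list (49.2%). The iPSC list held 34.8% of them (37.8%) and the MEF list 13.5% (66.1%). Neither end point list held 61.1% of them, against 16.7% of all tested regions. The largest single patterns were Stage 1 and Stage 2 only (341 regions), Stage 1, Stage 2 and iPSC (236) and Stage 1 only (212), while 13 were in the Stage 2 list alone. These regions lay away from genes more often than regions at large. Only 6.47% overlapped a promoter window, which runs from 250 bases before to 50 after a RefSeq transcription start, against 16.0% of all tested regions. Within 1 kb of a gene end lay 9.06% (all regions, 20.6%) and within a gene span 44.3% (58.3%). Low shares at promoters and gene ends were not particular to this set. Promoter windows were overlapped by 8.64% of the regions called higher in the contrast, 7.69% of those called lower and 8.76% of those below both. In the same order, 12.8%, 10.1% and 10.96% lay within 1 kb of a gene end, and 51.1%, 54.5% and 60.8% within a gene span. Chromosome X held 30 of them, 3.24% against 2.00%.

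The 6 regions with the largest smaller difference, among those without overlap of libraries and whose mean reached 2 log2 CPM, all lay outside promoter windows. The first lies on chromosome 1 at 27486601 to 27487150 (mm10), 799140 bp from the nearest protein-coding gene. Its 3 MEF libraries gave 0.79, 0.45 and 0.80 CPM, Stage 1 12.9, 13.9 and 14.6, Stage 2 7.16, 5.401 and 6.06, and iPSC 1.42, 1.51 and 0.91. Stage 1 was highest, and both end points were under their expected background of 1.36 and 3.78 CPM. The intermediates exceeded MEF by 3.68 ± 0.41 and iPSC by 2.78 ± 0.51 log2 units (SE, edgeR adjusted p = 0.000388 for both). The second, on chromosome 15 at 43815701 to 43816250, 47094 bp from Tmem74, differed from both end points by similar amounts, 2.64 ± 0.38 above MEF and 2.59 ± 0.54 above iPSC. The third, on chromosome 4 at 93505451 to 93506200, reached 21.2, 40.0 and 33.6 CPM at Stage 1 and 5.38 to 15.4 at Stage 2, and its Stage 2 minus Stage 1 difference was -1.67 ± 0.28 (edgeR adjusted p = 9.22e-06). The others were a region 17048 bp from Pramel30 on chromosome 4, whose levels overlapped between the stages (11.6 to 17.4 and 12.6 to 24.8 CPM), 1 inside Macf1, the gene of a cytoskeletal linker, and 1 inside Syne3, which encodes a nuclear envelope protein. Their smaller differences were 2.18, 2.16 and 2.16.

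Some members clustered. Of the 927 regions, 734 stood alone, and the largest group held 5 regions on chromosome 9 between 90133401 and 90272100, near Adamts7 and Tbc1d2b. Groups of 4 lay near Dclk2 on chromosome 3, near Clec2f and Klrb1f on chromosome 6, and in a stretch of chromosome 9 without a linked protein-coding gene. Neighbouring regions share their surroundings, so they are not independent.

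Among the few members at promoters, 4 are shown with their sequence, because each window overlaps a region above both end points without overlap of libraries. Only Cldn3 met the rule for named genes. The others were taken after their values were seen, in the order of the smaller difference and passing over genes with only a numbered name. Windows are from RefSeq (GRCm38.p6, the same build as mm10), 5′ to 3′ on the gene's strand, in lower case with matches to the motifs searched in capitals. The windows are Cldn3 at chr5:134985964-134986263 (plus strand), Lnx1 at chr5:74702854-74703153 (minus), Map2k6 at chr11:110479090-110479389 (plus) and Celsr3 at chr9:108825795-108826094 (plus).
Cldn3: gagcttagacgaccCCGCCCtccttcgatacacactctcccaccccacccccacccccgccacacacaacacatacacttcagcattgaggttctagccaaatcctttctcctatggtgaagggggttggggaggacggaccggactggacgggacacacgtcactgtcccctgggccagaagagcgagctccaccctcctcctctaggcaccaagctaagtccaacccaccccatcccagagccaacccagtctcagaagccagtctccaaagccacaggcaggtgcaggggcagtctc
Lnx1: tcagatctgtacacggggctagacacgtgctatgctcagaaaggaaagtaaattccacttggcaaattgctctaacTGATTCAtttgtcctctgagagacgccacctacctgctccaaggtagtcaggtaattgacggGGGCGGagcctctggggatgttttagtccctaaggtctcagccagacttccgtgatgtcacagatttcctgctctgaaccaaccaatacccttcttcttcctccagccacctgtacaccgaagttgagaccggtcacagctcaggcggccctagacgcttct
Map2k6: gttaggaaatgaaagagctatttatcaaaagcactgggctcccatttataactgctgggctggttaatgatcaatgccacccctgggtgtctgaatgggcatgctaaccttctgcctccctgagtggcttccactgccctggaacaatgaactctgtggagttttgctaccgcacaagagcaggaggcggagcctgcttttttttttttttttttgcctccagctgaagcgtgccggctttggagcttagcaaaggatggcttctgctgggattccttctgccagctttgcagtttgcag
Celsr3: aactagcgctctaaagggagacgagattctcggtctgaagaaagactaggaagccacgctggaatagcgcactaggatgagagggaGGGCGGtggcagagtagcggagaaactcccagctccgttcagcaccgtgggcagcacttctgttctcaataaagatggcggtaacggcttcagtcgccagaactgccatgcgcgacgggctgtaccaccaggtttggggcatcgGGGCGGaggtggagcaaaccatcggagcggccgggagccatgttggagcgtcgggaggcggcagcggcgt

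The region at Cldn3, which encodes a tight junction claudin, had 4.95, 4.08 and 6.83 CPM at MEF, 57.5, 36.5 and 34.2 at Stage 1, 34.2, 43.8 and 41.1 at Stage 2, and 29.1, 24.9 and 20.9 at iPSC. All 6 intermediate libraries were above all 6 others, by 3.01 ± 0.20 log2 units against MEF and 0.70 ± 0.19 against iPSC (SE, edgeR adjusted p = 0.0250). At the promoter of Lnx1, a ubiquitin ligase that binds Numb, both end points were near background. MEF libraries gave 0.40, 1.59 and 1.61 CPM and iPSC libraries 2.84, 3.77 and 3.63, with 11.3, 11.3 and 17.1 at Stage 1 and 7.16, 9.60 and 10.8 at Stage 2. At Map2k6, the gene of a kinase that activates p38, Stage 1 gave 15.1, 16.5 and 12.8 CPM and Stage 2 9.37, 6.00 and 5.38, against 2.41 to 4.08 at MEF and 0.91 to 5.27 at iPSC. Stage 2 there was lower than Stage 1 by a called difference, -1.05 (edgeR adjusted p = 0.0272). The region at Celsr3, a cadherin of planar cell polarity, was 1.69 ± 0.24 above MEF and 1.25 ± 0.29 above iPSC (edgeR adjusted p = 0.00794). The same region also overlaps the window of a gene on the opposite strand.

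Short motifs were searched on both strands in the 66 windows over regions above both, the 48 over regions below both, and all 32851 windows; matches may overlap. GGGCGG, the letters of Sp and Klf sites, was in 63.6% of the windows above, 54.2% of those below and 35.7% of all. The median GC content was 58.7%, 60.0% and 52.7% in the same order, so both sets were richer in GC than all windows. All windows were taken whether or not a tested region lay over them. Windows over tested regions alone were not searched, so the gaps do not compare open windows with open windows. TGANTCA (AP-1) was in 4.55%, 10.4% and 7.81%, TGCAAAT (octamer) in 9.09%, 4.17% and 4.02%, and TAATCC (Otx) in 6.06%, 0% and 7.06%. AACCGG (grainyhead) was in 12.1%, 4.17% and 6.83%, GGAATG (Tead) in 21.2%, 16.7% and 14.7%, ATCAAAG (Tcf and Lef) in 9.09%, 2.08% and 3.73%, and AAGGTCA (Esrrb) in 1.52%, 8.33% and 4.72%. With 66 and 48 windows, each percentage other than that of GGGCGG rests on 14 windows or fewer. A match is a run of letters and not a shown binding site.

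At gene level the same contrast called 4989 of 17540 genes higher (28.4%) and 4306 lower (24.5%), and the both-end-points test called 404 above (2.3%) and 754 below (4.3%). Libraries did not overlap in 275 of the genes above (68.1%) and 481 of those below (63.8%), against 2.7% and 3.96% of all genes. As with regions, Stage 2 was lower than Stage 1 in 89 of the genes above (22.0%), against 8.2% of all genes, and higher in 169 of those below (22.4%), against 7.74%. These genes too were chosen on the same reads, so the shares describe them and test nothing. Without iPSC replicate 1, 152 genes were above both, and without iPSC replicate 3, 454 were below. The count above also moved by over 1.5 times without Stage 1 replicate 3, Stage 2 replicate 1 or 2, or either of the other iPSC libraries. The gene view depends on scaling. Scaled to all reads of a library instead of reads in regions, the median difference of all genes moved by -1.15 log2 units against MEF and by 0.52 against iPSC, and that of the contrast by -0.31. The share of higher genes among all called ones then went from 53.7% to 18.8%. Under it 69 of the 404 genes above both were still called above, and 0 of the 754 below were still called below with edgeR (28 at an unadjusted p under 0.05, with 398 still lower than both by sign). At region level 811 of the 927 above and 36 of the 502 below were called under both scalings.

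**Figure D3:**
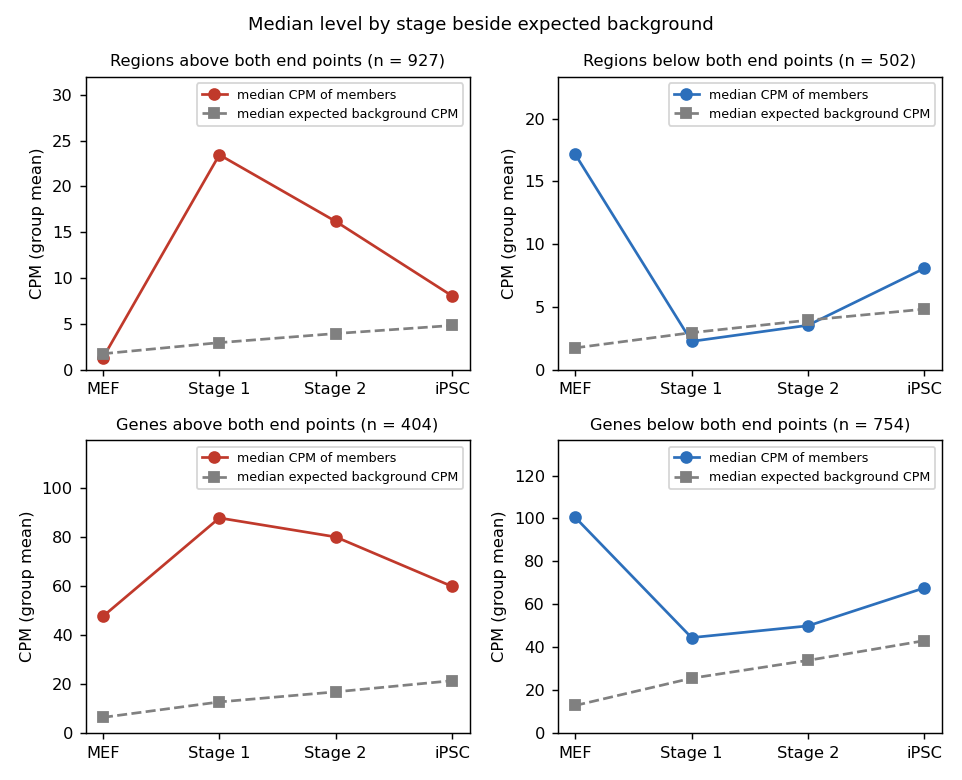
Median CPM of the members by stage (circles) beside the median of expected background (squares, dashed), for regions (top) and genes (bottom), above (left) and below (right) both end points. The sets above both peak in Stage 1 (23.5 CPM for regions, 87.8 for genes), and the regions below both lie under background in Stage 1 and Stage 2 (2.25 and 3.53 against 2.94 and 3.93 CPM), whereas the genes below both stay above it.

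The genes with the largest smaller difference above both were mostly linked to 1 to 4 regions and several belong to receptor families of immune or sensory cells. Clec4a4, a C-type lectin gene of myeloid cells, had 0.84, 0.57 and 1.76 CPM at MEF, 49.98, 43.7 and 41.9 at Stage 1, 29.9, 33.9 and 23.7 at Stage 2, and 13.7, 10.9 and 10.5 at iPSC. That was 5.22 ± 0.26 above MEF and 1.62 ± 0.22 above iPSC (SE, edgeR adjusted p = 5e-07), from 1 region inside the gene. Vmn2r22, a vomeronasal receptor gene, rose to 64.9, 68.7 and 64.4 CPM at Stage 1 and stood at 16.3, 17.2 and 14.9 at Stage 2, a Stage 2 minus Stage 1 difference of -2.02 log2 units (edgeR adjusted p = 1.1e-12). MEF libraries there gave 1.17 to 2.46 CPM and iPSC libraries 8.56 to 12.4. Cyp2j11, of the cytochrome P450 genes, reached 34.3 to 37.7 CPM at Stage 1 and 11.97 to 18.4 at Stage 2, and was 1.32 ± 0.26 above iPSC. Ceacam2, a cell adhesion gene, Barhl1, a homeobox factor of neurons, and the olfactory receptor genes Olfr1424 and Olfr1425, which share 1 region, were 1.00 to 1.08 above iPSC. LOC108167320, known by a number only, stood at 115 to 124 CPM in both stages, 3.79 to 5.97 at MEF and 54.4 to 67.3 at iPSC. These genes, from Clec4a4 to LOC108167320, were also called above both when scaled to all reads. Zfp458, a zinc finger gene, and Banf2 completed the list, with smaller differences of 1.13 and 1.15, and were not (adjusted p = 1 for each). Several have near-identical copies, and how reads with several matches were counted is not given in the sources used here, so their levels are uncertain.

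Genes of the pluripotency network were higher in the intermediates as a group, mainly against MEF. All 34 members were tested. In the contrast 31 were called higher and 0 lower, against 28.4% and 24.5% of all genes, with a median of 0.93 against 0.03 over all genes. The median was 1.79 against MEF and 0.17 against iPSC. Scaled to all reads the median stayed positive at 0.62, with 22 called higher. The both-end-points test called 5 of the 34 above, against 2.3% of all genes. These were Nanog, Sall4, Utf1, Zfp296 and Tet2. Nanog, a core factor of the naive state, had 56.0, 52.8 and 43.2 CPM at MEF, 158, 161 and 145 at Stage 1, 160, 124 and 119 at Stage 2, and 120, 114 and 102 at iPSC. It was 1.48 ± 0.09 above MEF and 0.36 ± 0.10 above iPSC (edgeR adjusted p = 0.0167), with 1 Stage 2 library below the highest iPSC library. One of its 4 regions carried the call, at chr6:122702251-122703350, 4138 bp from Nanog, and it was in all 4 stage lists: 41.4 to 58.4 CPM at MEF, 94.6 to 110 at Stage 1, 68.4 to 94.8 at Stage 2 and 42.7 to 61.8 at iPSC. Scaled to all reads, Nanog was not called above both (adjusted p = 1).

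Sall4, a zinc finger factor of the same network, had 8.53, 11.6 and 16.5 CPM at MEF, 70.1, 82.1 and 86.9 at Stage 1, 60.9, 64.2 and 60.2 at Stage 2, and 57.9, 45.9 and 45.7 at iPSC. The 6 intermediate libraries did not overlap the others, and the difference was 2.61 ± 0.14 from MEF and 0.49 ± 0.14 from iPSC (edgeR adjusted p = 0.0188). Tet2, which oxidises methylated cytosine, rose from 53.0 to 60.6 CPM at MEF to 283, 313 and 323 at Stage 1, and Stage 2 libraries gave 267, 247 and 224 against 214, 237 and 186 at iPSC. Of the 9 tested regions of Tet2, 8 were called higher in the contrast. The region inside the gene at chr3:133524301-133525300, itself above both, held a part of the rise: 1.36 to 2.01 CPM at MEF, 77.5 to 92.2 at Stage 1, 33.6 to 44.6 at Stage 2 and 22.6 to 30.6 at iPSC. It was called lower in Stage 2 than in Stage 1 (-1.15, edgeR adjusted p = 1.17e-07). Sall4 and Tet2 were called above both under both scalings (edgeR adjusted p of 0.0142 and 0.0253 with all reads). Utf1 and Zfp296 were 0.32 and 0.42 above iPSC and lost the call with all reads.

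**Figure D4:**
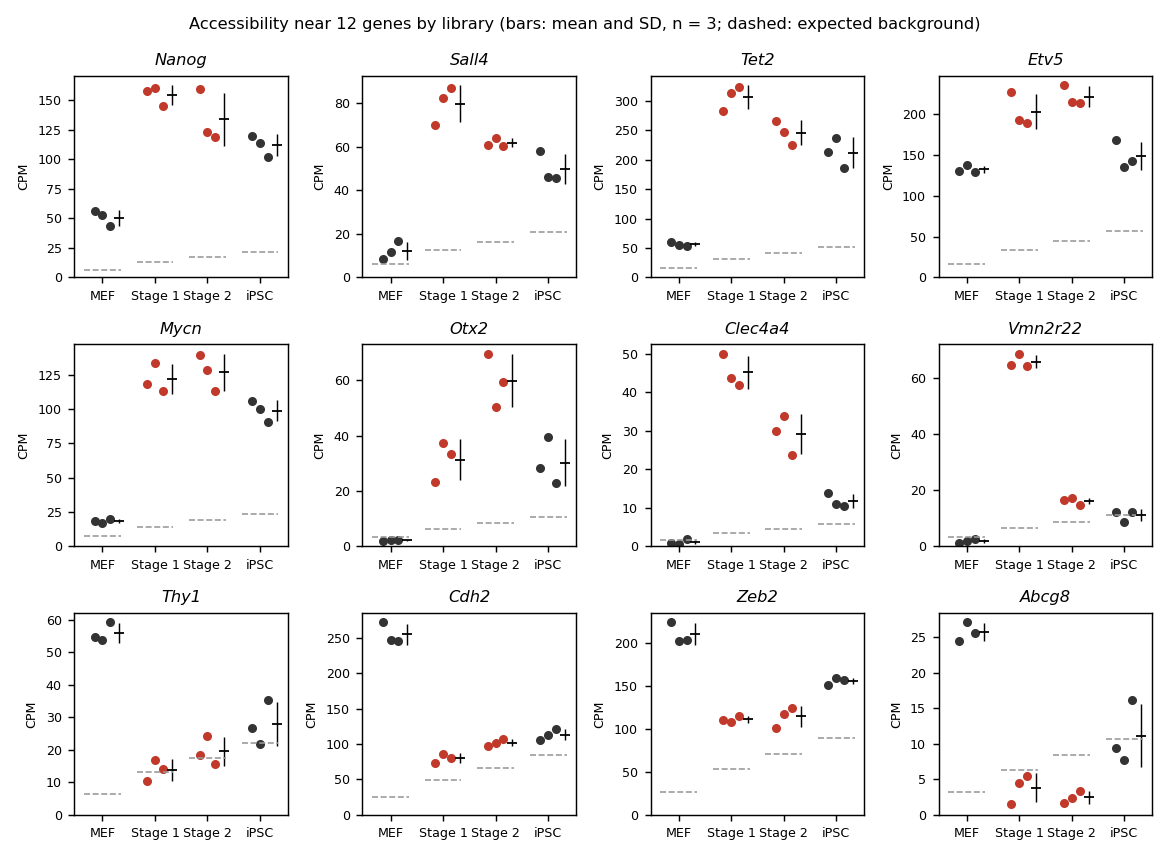
CPM of each library (points, red for the intermediates) for 12 genes, with mean and SD of 3 libraries (bars) and expected background (dashed). Nanog, Sall4, Tet2, Etv5, Mycn, Clec4a4 and Vmn2r22 have higher means in both stages than in either end point, and Otx2 is highest in Stage 2. At Stage 1 Thy1 is near its background (mean 13.8 against 13.1 CPM) and Abcg8 under it (3.81 against 6.32), while Cdh2 (80.2 against 49.7) and Zeb2 (111 against 52.9) stay above.

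The classical reprogramming factors differed from each other. Pou5f1, which encodes Oct4, was 1.13 ± 0.10 above MEF, with 40.4 to 46.0 CPM there and 83.0 to 113 in the intermediates, but its 0.28 ± 0.11 over iPSC did not pass (edgeR adjusted p = 0.131). Sox2 was 1.87 ± 0.14 above MEF and 0.15 ± 0.15 from iPSC. For Klf4 and Myc the contrast was 0.10 ± 0.09 and -0.06 ± 0.08, and neither was called (edgeR adjusted p of 0.315 and 0.540). Fgf4, a target of Oct4 and Sox2, had the largest contrast of the list without overlap of libraries, 2.38 ± 0.10, from 3.01 to 6.63 CPM at MEF to 102 to 116 in the intermediates, with 82.8 to 94.8 at iPSC (both-end-points edgeR adjusted p = 0.0897).

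Of 21 tested genes of the primed epiblast, the state that follows the naive one, 13 were called higher and 2 lower. Their median was 0.41, and 0.10 scaled to all reads. Over all genes 28.4% were higher and 24.5% lower. Above both was 1 of the 21, against 2.3% of all genes, which is too few for a statement about the list. That gene was Etv5, an ETS factor induced by FGF signals. It had 129 to 137 CPM at MEF, 188 to 227 at Stage 1, 213 to 236 at Stage 2 and 135 to 168 at iPSC, and 3 of its 13 tested regions passed the test as regions. Scaled to all reads, Etv5 turned direction against MEF (-0.47) and was not called above both (edgeR adjusted p = 1). The strongest, at chr16:22402451-22403200 inside the gene, gave 0.40 to 0.68 CPM at MEF, 14.8 to 24.2 at Stage 1, 28.3 to 33.6 at Stage 2 and 6.03 to 7.26 at iPSC. It was one of the 15 called higher in Stage 2 (0.70, edgeR adjusted p = 0.0353). Over the regions within 1 kb of a gene end alone the contrast of Etv5 was -0.26, so its call rests on regions farther inside the gene. Otx2, a homeobox factor of the epiblast, rose through the intermediates, from 1.84 to 2.27 CPM at MEF to 23.1 to 37.5 at Stage 1 and 50.5 to 69.6 at Stage 2, with 22.8 to 39.7 at iPSC. Stage 2 was 0.94 above Stage 1 (edgeR adjusted p = 6.28e-05), and the mean of both stages missed the test against both end points (adjusted p = 0.0695), which it passed with all reads (adjusted p = 0.0288). Dnmt3b, a methyltransferase gene, was called higher by 0.33 ± 0.12, and Fgf5 was not called (-0.18 ± 0.11).

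**Figure D5:**
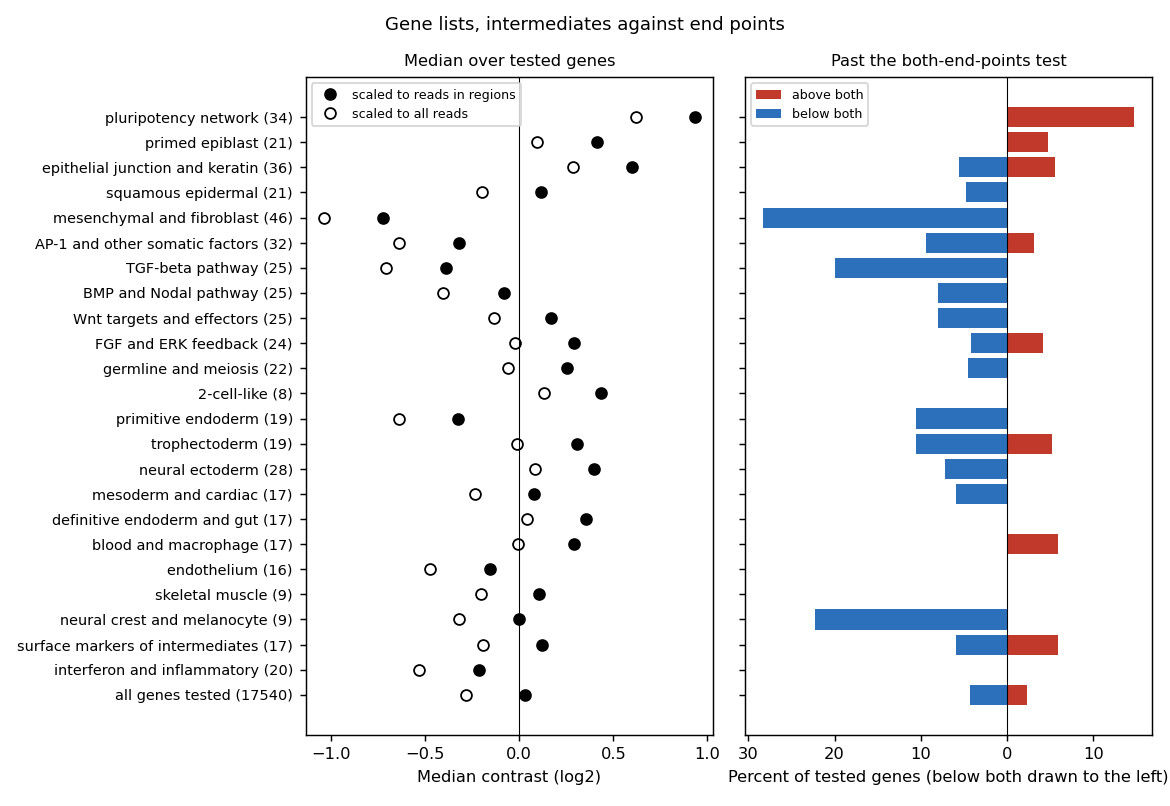
Left, the median contrast (log2) of the tested genes of 23 lists and of all genes, scaled to reads in regions (filled) or to all reads (open). Right, the percent of tested genes above both end points (red) and below both (blue, drawn leftwards); pluripotency genes have the highest median (0.93) and mesenchymal genes the lowest (-0.72).

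Epithelial genes were mostly higher in the contrast, with a median close to that of iPSC. Of 36 tested, 24 were called higher and 4 lower, with a median of 0.60 (0.29 with all reads), 1.09 against MEF and 0.09 against iPSC. Over all genes 28.4% were called higher, 24.5% lower, 2.3% above both and 4.3% below both. Cldn3 and Crb3, a polarity gene, were above both end points, and the keratin genes Krt7 and Krt19 below both. The 2 of 36 below are near the share of all genes. With all reads none of the 4 was called (edgeR adjusted p of 0.479 for Cldn3, 0.0515 for Crb3 and 1 for both keratin genes). Cdh1, which encodes E-cadherin, was 1.66 ± 0.10 above MEF and 0.19 ± 0.10 from iPSC (both-end-points edgeR adjusted p = 0.382). Krt7 was lowest in Stage 1 (5.22, 13.4 and 11.5 CPM) and higher in Stage 2 (16.3, 22.0 and 17.6), with 22.1 to 27.7 at MEF and 24.9 to 37.1 at iPSC. Its expected background was 9.70 CPM at Stage 1 and 16.3 at iPSC.

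Signalling genes above both were few, with 1 of 24 FGF and ERK feedback genes and 0 of 25 Wnt genes, against 2.3% of all genes. Below both were 1 of the 24 and 2 of the 25, against 4.3%. The contrast called 14 of the 24 higher and 4 lower, and 13 of the 25 higher and 6 lower. Over all genes 28.4% were higher and 24.5% lower. Scaled to all reads, 4 of the 24 were higher and 5 lower, and 7 of the 25 higher and 8 lower. What follows describes single genes and not their lists. Mycn, counted here with FGF and ERK feedback genes, had 16.7 to 19.7 CPM at MEF, 113 to 140 in the intermediates and 90.4 to 106 at iPSC (0.32 ± 0.10 above iPSC, edgeR adjusted p = 0.0368, and 0.0513 with all reads). Tead1, the partner of Yap, was 0.62 ± 0.07 above MEF and 0.25 ± 0.08 above iPSC, and 2 of its 19 tested regions passed as regions. With all reads Tead1 was -0.52 from MEF and lost the call (edgeR adjusted p = 1). Of the Wnt effectors, Lef1 was 1.84 ± 0.11 above MEF, 0.74 higher in Stage 2 than in Stage 1 (edgeR adjusted p = 3.44e-06) and not called against iPSC (0.09 ± 0.11), though 1 of its 8 tested regions was above both. Axin2, a Wnt target, was 1.03 ± 0.10 above MEF with 105 to 151 CPM at Stage 1 and 67.4 to 75.0 at Stage 2. Alpl, the gene of the alkaline phosphatase that marks pluripotent cells, was above both end points under both scalings, with 6.69 to 9.85 CPM at MEF, 52.6 to 72.4 at Stage 1, 56.1 to 70.1 at Stage 2 and 36.6 to 47.8 at iPSC. Tfap2c, of the trophectoderm list, was 2.2 ± 0.12 above MEF and 0.40 ± 0.12 above iPSC, also under both scalings.

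The lists for other cells the samples could hold gave mixed results. Of 17 tested blood and macrophage genes 8 were called higher and 2 lower, with 1 above both (Cd68, 0.55 ± 0.10 over iPSC, not called with all reads). Over all genes 28.4% were higher, 24.5% lower and 2.3% above both, so 1 of 17 above is no result about the list. Summed over the list, accessibility was 391 to 403 CPM at MEF, 557 to 625 in the intermediates and 564 to 610 at iPSC. The endothelial sum was 794 to 859 CPM at MEF, 677 to 796 in the intermediates and 813 to 868 at iPSC, with 3 of 16 higher and 7 lower. For skeletal muscle the sums were 170 to 181, 207 to 226 and 213 to 255 CPM, and for neural crest and melanocyte genes 679 to 722, 511 to 616 and 595 to 618 CPM. Their part in the results was not tested.

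The 502 regions below both end points were all in the MEF list, against 66.1% of all tested regions and 99.9% of those called lower. In no other list were 397 of the 502 (79.1%), against 36.5% and 88.3%. Neither trait was particular to this set. The median of the 502 was 17.2 CPM at MEF, 2.25 at Stage 1, 3.53 at Stage 2 and 8.07 at iPSC, against an expected background of 1.73, 2.94, 3.93 and 4.82 CPM. In 355 (70.7%) the libraries did not overlap, against 2.74% of all tested regions, and 329 (65.5%) were called lower in iPSC than in MEF, against 40.8%. The members were chosen on these reads, so both shares describe them and test nothing. The iPSC mean was over 2 times background in 180 of them (35.9%, against 55.1% of all tested regions), and the iPSC list held 102 (20.3%, against 37.8%). By median, these regions stood under background in the intermediates, and in most of them iPSC stood at less than 2 times that level. Background itself was 0.55 log2 units lower in the intermediates than in iPSC on the CPM scale, and 1.27 higher than in MEF. Its part in these calls was not tested. With the expected background subtracted from each count, a processing chosen after seeing the data, 399 regions were called below both and 686 above. Of the 502 members below both, 338 were tested in it and 233 called again, and of the 927 above both, 638 were called again.

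The sharpest of them had very few reads at Stage 1. Under the same limits as above (no overlap of libraries and a mean of at least 2 on the log2 CPM scale), which leave out some members with larger differences, the first by the smaller difference lies on chromosome 5 at 135621551 to 135622200, 10453 bp from Rhbdd2, with 8.91, 12.01 and 12.05 CPM at MEF, 1.51, 0 and 0.61 at Stage 1, 1.10, 1.20 and 2.02 at Stage 2, and 5.69, 4.52 and 9.99 at iPSC. Stage 1 held 3 reads there in all and Stage 2 7, and the differences were -3.33 ± 0.38 from MEF and -2.61 ± 0.53 from iPSC (SE, edgeR adjusted p = 0.00136). The next were a region 2478 bp from Pgm2l1, 1 at 202633 bp from Tbx3, 1 on chromosome 17 at 45792051 to 45792750, 1 inside Dst and 1 at 70042 bp from Cacna2d3, with differences from iPSC of -2.41, -2.33, -2.32, -2.30 and -2.29. Of these 6 regions, the one near Tbx3 was not called with all reads. The stage lists again only describe members chosen on the same reads. A pattern of MEF and iPSC lists without either intermediate list was found in 48 of the 502 (9.56%), against 0.853% of all tested regions. The pair with the largest smaller difference, taken after their values were seen, stood well over background in iPSC. A region 1567 bp from Ankrd44, at chr1:54930551-54931300, had 20.6, 29.2 and 20.9 CPM at MEF, 3.02, 2.61 and 3.66 at Stage 1, 7.16, 4.80 and 10.1 at Stage 2, and 22.7, 22.6 and 12.7 at iPSC. A region inside Ldlrad4, whose product limits TGF-beta signalling, had 11.2 to 18.4 CPM at MEF, 0.76 to 3.47 at Stage 1, 4.04 to 5.401 at Stage 2 and 11.3 to 15.6 at iPSC. Both were called below both end points under both scalings (adjusted p of 0.00255 and 0.00239 with all reads). Of the 36 regions with that property, 10 stood over 2 times background in iPSC.

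At promoters, the window with the largest smaller difference, passing over genes with only a numbered name and taken after the values were seen, was that of Emilin1, an extracellular matrix gene, shown as the opposite case to the 4 above. Its window lies at chr5:30913536-30913835 on the plus strand and held none of the motifs searched.
Emilin1: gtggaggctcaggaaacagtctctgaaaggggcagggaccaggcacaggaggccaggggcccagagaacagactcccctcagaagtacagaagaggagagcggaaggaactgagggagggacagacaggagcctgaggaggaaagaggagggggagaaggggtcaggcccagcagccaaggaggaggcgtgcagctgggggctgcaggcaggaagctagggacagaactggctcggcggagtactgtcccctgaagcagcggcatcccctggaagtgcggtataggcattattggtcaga

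The region over it gave 40.0, 47.6 and 41.0 CPM at MEF, 1.51, 0 and 3.66 at Stage 1, 3.31, 8.40 and 5.38 at Stage 2, and 15.6, 9.04 and 9.99 at iPSC. The differences were -3.67 ± 0.23 log2 units from MEF and -1.80 ± 0.36 from iPSC (SE, edgeR adjusted p = 0.00125). Stage 1 and Stage 2 lay around their expected background of 3.57 and 4.78 CPM, and iPSC above its 5.85.

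Most fibroblast genes were lower in the contrast, and some were under each end point. Of 46 tested mesenchymal and fibroblast genes, 37 were called lower and 1 higher in the contrast, against 24.5% and 28.4% of all genes. Their median was -0.72 (-0.97 against MEF and -0.32 against iPSC). The both-end-points test called 13 below both, against 4.3% of all genes. These were Thy1, Cdh2, Zeb2, Prrx1, Prrx2, Pdgfrb, Fbn1, Tagln, Acta2, Mmp2, Meox1, Meox2 and Lox. Scaled to all reads 39 of the 46 were lower in the contrast, and 0 were called below both. Thy1, a fibroblast surface marker lost early in reprogramming, had 54.5, 53.6 and 59.3 CPM at MEF, 10.4, 17.0 and 14.0 at Stage 1, 18.5, 24.4 and 15.6 at Stage 2, and 26.8, 21.8 and 35.2 at iPSC, beside an expected background of 6.55, 13.1, 17.3 and 22.0 CPM. Cdh2, which encodes N-cadherin, had 246 to 273 CPM at MEF, 73.1 to 86.5 at Stage 1, 97.4 to 107 at Stage 2 and 106 to 122 at iPSC, and its background in iPSC was 83.9. Zeb2, a repressor of E-cadherin, stood at 202 to 225 CPM at MEF, 101.2 to 124 in the intermediates without overlap, and 151 to 159 at iPSC, where background was 89.2. It was -0.90 ± 0.07 from MEF and -0.47 ± 0.09 from iPSC (edgeR adjusted p = 0.000298). No single region of Thy1, Cdh2 or Zeb2 passed. Over the regions within 1 kb of a gene end alone the contrast of Zeb2 was 0.10.

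The same held for genes of TGF-beta signalling, a pathway that sustains the mesenchymal state. Of 25 tested, 17 were called lower and 0 higher (median -0.39), and 5 were below both: Ltbp1, Pmepa1, Tgfbr2, Tgfbi and Inhba. Pmepa1, a feedback inhibitor, had 184 to 211 CPM at MEF, 73.1 to 83.0 at Stage 1, 91.4 to 105 at Stage 2 and 116 to 128 at iPSC, and 1 of its 11 tested regions was below both. Ltbp1, which holds latent TGF-beta in the matrix, was -0.75 ± 0.07 from MEF and -0.50 ± 0.08 from iPSC, but 0.34 in the contrast over regions within 1 kb of a gene end alone. The receptor gene Tgfbr2 had 115 to 116 CPM at MEF, 24.5 to 52.6 in the intermediates and 31.8 to 52.3 at iPSC, so its libraries overlapped those of iPSC. Of 32 AP-1 and other somatic factor genes 17 were lower and 5 higher, with Ets1, Nfia and Nfix below both and Tead1 above, whereas Fosl1 was not called (-0.10 ± 0.10). Over all genes 24.5% were lower, 28.4% higher, 4.3% below both and 2.3% above both, so 1 of 32 above is near that share. Of the BMP and Nodal genes Bmp6 and Bmpr1b, of the Wnt genes Tcf7l2 and Nkd1, and of the primitive endoderm genes Col4a1 and Col4a2, neighbours whose linked stretches overlap, were below both. Trp63, of the squamous list, was below both too, at -0.36 ± 0.10 from MEF and -0.61 ± 0.12 from iPSC. These are single genes, and their lists were mixed in the contrast. Of 25 BMP and Nodal genes 7 were called higher and 10 lower, and of 25 Wnt genes 13 and 6. Of 19 primitive endoderm genes 6 were higher and 9 lower, and of 21 squamous genes 7 and 7. None of the genes named in this paragraph as below both kept that call when scaled to all reads (adjusted p = 1 for each).

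The 10 genes with the largest smaller difference below both, among those without overlap of libraries and with a mean of 3 log2 CPM or more, had 2 to 4 linked regions, and none was called below both with all reads. Abcg8 and Abcg5, neighbouring sterol transporter genes whose linked stretches overlap, had 24.4 to 27.1 and 35.4 to 37.1 CPM at MEF and 1.49 to 5.47 and 4.35 to 10.1 in the intermediates. In iPSC they had 7.78 to 16.2 and 13.0 to 28.5 CPM, where background was 10.7 and 18.1. The differences of Abcg8 were -3.05 ± 0.24 from MEF and -1.80 ± 0.36 from iPSC (edgeR adjusted p = 0.000473). Slc2a2, a glucose transporter gene, Scd4, Cdrt4, Apol7a, Tmem171, Spaca1, Apol9a and Rnase10 followed, at -1.55 to -1.19 from iPSC. Of these 10 genes, Cdrt4 had the highest iPSC level against background, 20.2 to 30.4 CPM against 14.2. Over all 754 genes below both, the median was 100.5 CPM at MEF, 44.4 at Stage 1, 49.9 at Stage 2 and 67.6 at iPSC, with expected background of 12.8, 25.5, 33.8 and 43.0 CPM. Of the 754, 148 (19.6%) were over 2 times background in iPSC, against 70.1% of all tested genes. The 754 had a median of 10 linked regions, against 4 over all genes and 5 for the genes above both.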

How the data were processed

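ATAC-seq was measured in 12 libraries, 3 in each of 4 groups. The submitters' processing notes name the aligner Bowtie2 2.2.6, the counter HTSeq 0.5.4p3, the read tools SAMtools 0.1.19 and Picard 2.6.0, DESeq2 1.12.4 and the build mm10, with no order or settings. The authors deposited raw read counts per region for each library and 1 interval list per stage. How regions and lists were called is not given in the sources used here.

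From the counts, regions were filtered (filterByExpr, minimum count 10, minimum total 15), scaled by TMM and fitted in 1 model of the 4 groups with edgeR 4.0.16 in R 4.3.3 (quasi-likelihood, robust, Benjamini-Hochberg threshold 0.05). Gene values are counts summed over linked regions (GRCm38.p6). Reads that named no region stayed out of library sizes. The code was tested on simulated data. DESeq2 1.42.0, limma 3.58.1, other scalings, filters and left-out libraries were alternatives. PCR reads are not independent molecules, so any precision from counts covers counting error only.

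The named genes were the 10 with the largest smaller difference in each direction without overlap of libraries and with a mean of at least 3 on the log2 CPM scale, 2 from each of 23 gene lists, and 14 fixed genes; further members past the both-end-points test are named to account for small counts. The comparison, lists and rules were chosen with earlier results of these data known. Same-numbered replicates did not deviate together (correlations from -0.10 to 0.11), so the main model has no replicate term.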

Additional observations from a re-analysis of the deposited data

Results flagged for a closer look

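Stage 2 differed from Stage 1 in many members, by the test of Stage 2 minus Stage 1 itself. The members were chosen on the same Stage 1 and Stage 2 reads, so the shares need not be free of that choice. Among the 927 regions above both end points, Stage 2 was lower than Stage 1 in 324 (34.95%), against 4.3% of all regions, and higher in 15 (1.62%), against 6.14%. Among the 502 regions below both, it was higher in 38 (7.57%), close to the 6.14% of all regions, and lower in 0 (5 at an unadjusted p under 0.05 with edgeR), against 4.3%. Of the 404 genes above both, 89 (22.0%) were lower in Stage 2, against 8.2% of all genes, and of the 754 genes below both, 169 (22.4%) were higher, against 7.74%. The groups of 3 libraries were too small for a check of single outlying libraries.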

How the results depend on the processing

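Regions above both, 927 in the report, numbered 412 with DESeq2's Wald test, 2656 scaled to all reads, 1573 with no filter, 441 with a stricter filter, 2305 with Stage 1 alone and 363 with Stage 2 alone. Regions below both, 502, numbered 84, 42, 276, 250, 1142 and 51 in the same order. Of the regions above both, those lower in Stage 2 (324) were 207 with DESeq2 (22.3%, against 2.19% of all regions). With the stricter filter they were 208 of 538 tested (38.7%, against 7.70%). Those higher in Stage 2 (15) were 3 with DESeq2 (0.32%, against 2.42% of all regions) and 8 with no filter (0.86%, against 2.83%). Scaled to all reads they were 0, against 1.55% of all regions (3 at an unadjusted p under 0.05 with edgeR). Regions below both and higher in Stage 2 (38) were 13 with DESeq2 (2.59%, against 2.42% of all regions). Scaled to all reads they were 4 (0.80%, against 1.55%), and with no filter 22 (4.38%, against 2.83%). With the stricter filter they were 21 of 133 tested (15.8%, against 7.50%). Regions above both with iPSC over MEF (782 of 927, 84.4%) were 471 scaled to all reads (50.8%, against 23.7% of all regions). With the stricter filter they were 493 of 538 tested, a higher share (91.6%, against 37.3%). Regions below both with iPSC under MEF (329 of 502) were 501 scaled to all reads (99.8%, against 57.8%). With the stricter filter they were 89 of 133 tested (66.9%, against 40.1%). Thinned to equal reads, they were 214 of 371 tested (57.7%, against 34.0%). The contrast called 6362 regions higher and 5178 lower with the stricter filter, which tests fewer regions, 3175 higher as 2 groups of 6 libraries, 14637 lower when thinned, and 16939 higher and 8707 lower with expected background subtracted, chosen after seeing the data. Genes above both (404) numbered 189 with DESeq2, 102 scaled to all reads, 764 and 213 with Stage 1 or Stage 2 alone and 36 with regions within 1 kb of a gene end. Genes below both (754) numbered 488, 1, 311 with Stage 2 alone, 443 with background subtracted, 452 with regions linked to 1 gene and 65 within 1 kb. Genes higher in the contrast (4989) numbered 1316 scaled to all reads, 1110 as 2 groups and 2618 within 1 kb, and genes lower (4306) 2269 as 2 groups and 1831 within 1 kb. Within 5 kb in place of 1 kb of a gene end lay 23.4% of regions above and 22.5% of regions below both, against 9.06% and 10.96%. Where a setting names no smaller number of regions, the cause was not tested.

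With 1 library left out at a time, regions higher ranged from 26125 to 28947, lower from 23350 to 26881, above both from 355 (without iPSC replicate 3) to 1521 (without MEF replicate 1) and below both from 92 (without iPSC replicate 3) to 569. Leaving out MEF 1 or any iPSC library moved the count above both by over 1.5 times. For the count below both this held for Stage 1 replicates 2 and 3, Stage 2 replicates 1 and 2 and every iPSC library. Regions above both and lower in Stage 2 ranged from 239 to 404, higher from 3 to 15, and with iPSC over MEF from 735 to 788. Regions below both and higher in Stage 2 ranged from 9 to 36, and with iPSC under MEF from 279 to 348. Genes higher ranged from 4391 to 5053, lower from 4100 to 4391, above both from 152 (without iPSC replicate 1) to 468, and below both from 454 (without iPSC replicate 3) to 844. The count of genes above both moved by over 1.5 times without Stage 1 replicate 3, Stage 2 replicate 1 or 2, or any iPSC library.

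With the replicate number as a block, 844 regions were above both and 410 below, and 402 genes above and 754 below. The numbers pair no samples by the labels, so this fit only shows how a shared number moves the counts. Single gene contrasts turned sign over regions within 1 kb of a gene end for Bmp6 (0.22), Bmpr1b (0.038), Etv5 (-0.26), Kdr (0.026), Ltbp1 (0.34), Zeb2 (0.10), Nfix (0.35), Tcf7l2 (0.00058) and Fgfr2 (0.043), and over regions linked to 1 gene for Mmp2 (0.0031). Of 5647 values of named genes and regions under all alternatives, these 10 reversals included, 5099 kept direction and call, 520 lost the call and 18 gained it. Reads in regions were fewest in iPSC by a small margin (mean 1208977, against 1264786 at Stage 1), with 1034936 in 1 library. Total reads were fewest at Stage 1. Which difference was less precise varied by region. The SE was 0.17 from iPSC and 0.23 from MEF at the region inside Tet2, and 0.53 and 0.38 at that near Rhbdd2.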

Other observations

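Some gene families outside the lists had many members above the end points. They were picked after their values were seen, so the counts describe them only. Of 22 tested C-type lectin genes, which encode receptors of immune cells, 4 were above both end points (18.2%) and 15 were called higher in the contrast, with a median of 1.08. Of 43 vomeronasal receptor genes 3 were above both and 31 higher (median 1.44), and of 152 olfactory receptor genes 8 and 97 (median 1.25). Over all genes 2.3% were above both and 28.4% higher. Many of these genes lie in clusters and share regions or near-identical sequence. In the other direction, 33 of 44 collagen genes were called lower and 6 were below both (13.6%), with a median of -0.52, against 24.5% lower and 4.3% below both over all genes. None of the genes below both kept that call when scaled to all reads. Of 38 Hox genes 7 were called higher and 5 lower.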
